A study of Mus musculus with 8 samples.

Results

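Ido1 and the other enzyme genes of the kynurenine pathway were followed across 3 segments of the mouse gut in cells sorted for a Neurog3 reporter. The 7 genes were named by their place in the pathway (Ido1, Ido2, Tdo2, Afmid, Kmo, Kynu and Haao), and all 7 had a row among the 18131 gene rows of the table. Ido1 stands under its older symbol INDO and Ido2 under INDOL1. Ido1 was selected on its log2 values in these same arrays, where it differed between segments, so its values are given as a description, without a test.

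GFP-positive cells came from adult Ngn3-GFP mice, in which GFP reports on the promoter of Neurog3, a transcription factor gene that is needed for gut endocrine cells to form. They were isolated by flow cytometry from the pyloric (antral) stomach (3 arrays, called gastric), the duodenum (3 arrays, duodenal) and the colon (2 arrays, colonic). The series' design text speaks of tissue RNA and the sample labels of sorted cells. The labels were followed, and which of the 2 holds was not settled by the files. All groups share the reporter, and no treatment is given for any of them. Strain, sex and number of mice are not given in the sources used here, so each p-value rests on array-to-array spread alone, which may be technical. Stomach tissue was dissociated with EDTA and Accutase, and duodenum and colon with EDTA and dispase, so digestion and segment cannot be told apart between stomach and intestine.

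Values are log2 expression values of Illumina bead arrays, normalized by the authors, from 6.22 to 15.49. Olfactory receptor genes (1075 rows, 8600 values) served as a measure of background: their median was 6.59, and their 95th percentile, 6.81, is called the background level here. Across genes, Pearson's r was 0.9974 to 0.9980 within a segment and 0.9011 to 0.9537 between segments. Precision is limited by how few arrays there are, with the colon having the fewest. In such bulk samples a smaller share of cells of a type and less RNA per cell cannot be told apart.

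The kynurenine pathway is the main route by which mammals break down tryptophan. The opening step, the oxidation of tryptophan to N-formylkynurenine, is carried out by 3 enzymes, IDO1, IDO2 and TDO2. Arylformamidase (Afmid) then releases kynurenine, kynurenine 3-monooxygenase (Kmo) and kynureninase (Kynu) process it, and 3-hydroxyanthranilate dioxygenase (Haao) leads to quinolinate and on to NAD. Ido1 is known as an interferon-gamma-inducible enzyme of immune cells and epithelia, and Tdo2 as the enzyme of the liver. Ido1 in the gut is known for limiting tryptophan and for giving rise to ligands of the aryl hydrocarbon receptor.

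Ido1 was very high in duodenal cells, intermediate in colonic cells and just above background in gastric cells. The log2 values were 7.19, 7.31 and 7.19 in gastric arrays, 14.25, 14.30 and 14.25 in duodenal arrays, and 10.17 and 10.09 in colonic arrays. The 3 segments did not overlap, and within a segment the arrays differed by at most 0.13. The nearest gastric and duodenal arrays were 6.93 apart, the nearest gastric and colonic arrays 2.78, and the nearest duodenal and colonic arrays 4.07.

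Group means of Ido1 were 7.23 ± 0.07 (SD, n = 3) in gastric, 14.26 ± 0.03 (SD, n = 3) in duodenal and 10.13 ± 0.06 (SD, n = 2) in colonic arrays. Gastric cells thus stood 131-fold below duodenal cells (log2 difference -7.03, SE 0.05) and 7.49-fold below colonic cells (log2 difference -2.91, SE 0.06). Duodenal cells stood 17.5-fold above colonic cells (log2 difference 4.13, SE 0.06). Counting Ido1 itself, 2 rows of the table differed by at least as much between gastric and duodenal cells, 184 between gastric and colonic cells and 27 between duodenal and colonic cells. The gastric mean of Ido1 lay above that of all 1075 olfactory receptor rows, but their highest single value, 7.38, exceeded it. The folds against gastric cells are therefore uncertain in size, because a value so near background may understate the difference.

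**Figure D1:**
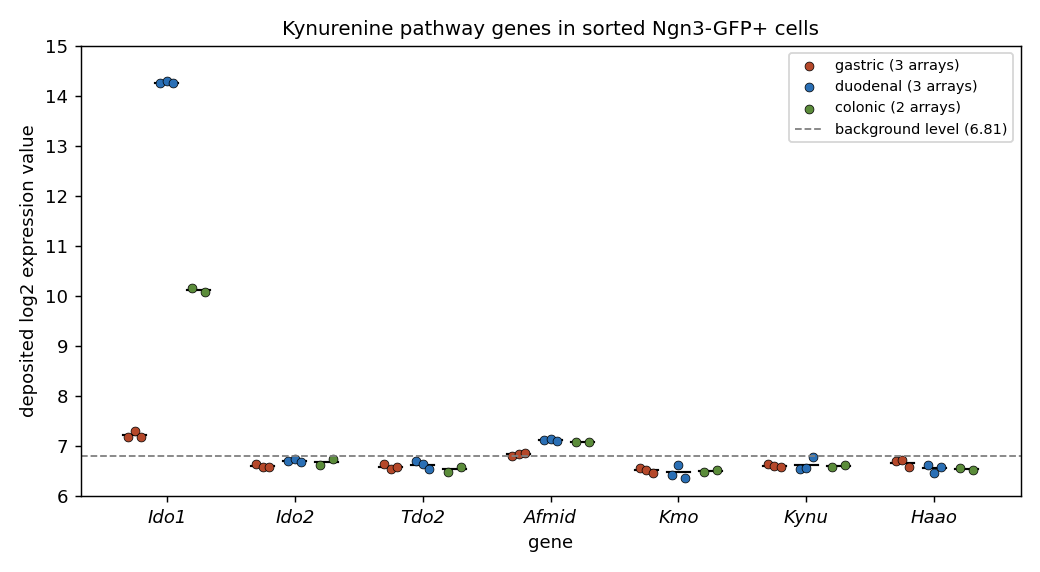
Deposited log2 values of the 7 pathway genes, with a point per array and a bar at the mean of the gastric (3), duodenal (3) and colonic (2) arrays. Ido1 stands near 14.26 in duodenal and 10.13 in colonic arrays, and the other genes lie close to the dashed background level of 6.81 in each segment.

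The other genes of the opening step were at background. Ido2, the neighbour of Ido1 on the chromosome and its closest relative, had log2 values of 6.64, 6.58 and 6.58 in gastric arrays, 6.70, 6.75 and 6.69 in duodenal arrays, and 6.63 and 6.74 in colonic arrays. All lay under 6.81. The gastric and duodenal arrays of Ido2 did not overlap, which was also so for 52.7% of all rows, and the difference did not pass the test (log2 difference -0.12, SE 0.05, limma adjusted p = 0.0625). Tdo2, the tryptophan dioxygenase of liver, read 6.54 to 6.64 in gastric, 6.54 to 6.70 in duodenal and 6.49 to 6.58 in colonic arrays. Its groups overlapped, and its adjusted p was 0.272 or higher in each comparison by limma.

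Afmid, whose enzyme releases kynurenine, was the only member besides Ido1 with a mean above background. Its log2 values were 6.81, 6.85 and 6.86 in gastric arrays, 7.12, 7.15 and 7.10 in duodenal arrays, and 7.09 and 7.08 in colonic arrays. Every gastric array lay under every duodenal and colonic array. Arrays did not overlap, in either direction, for 52.7% of all rows between gastric and duodenal and 59.3% between gastric and colonic cells. The gastric values lay close to the background level, and that of replicate 1 was not above it. Folds against them may therefore understate the difference. Afmid was lower in gastric than in duodenal cells (1.21-fold, log2 difference -0.28, SE 0.04, limma adjusted p = 6.39e-05) and lower in gastric than in colonic cells (1.18-fold, log2 difference -0.24, SE 0.05, adjusted p = 0.000805). Duodenal and colonic arrays of Afmid did not overlap either, as for 51.9% of all rows, but differed by 0.04 (SE 0.05, adjusted p = 0.607).

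The later enzymes stayed under the background level in all 8 arrays. Kmo, a mitochondrial hydroxylase of kynurenine, read 6.47 to 6.56 in gastric, 6.37 to 6.63 in duodenal and 6.48 to 6.53 in colonic arrays. Kynu, which cleaves kynurenine and 3-hydroxykynurenine, read 6.59 to 6.64, 6.55 to 6.78 and 6.58 to 6.62 in gastric, duodenal and colonic arrays. The gastric, duodenal and colonic arrays overlapped for both genes. Haao, whose product becomes quinolinate, read 6.71, 6.72 and 6.59 in gastric, 6.62, 6.47 and 6.59 in duodenal, and 6.56 and 6.53 in colonic arrays. Its gastric arrays were all above its colonic arrays, as in 59.3% of rows either way, and the difference did not pass the test (log2 difference 0.13, SE 0.06, limma adjusted p = 0.0996).

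Of the 6 members other than Ido1, limma called 1 (Afmid) between gastric and duodenal cells, where 46.6% of all rows were called. It called 1 (Afmid) between gastric and colonic cells, where 44.1% were called, and 0 between duodenal and colonic cells, where 34.2% were called. Among rows above background in either group, 75.3%, 71.4% and 56.7% were called in the same order of comparisons. Afmid was called lower in gastric cells in both, where 22.7% of all rows were called higher and 23.9% lower against duodenal cells, and 20.2% higher and 23.9% lower against colonic cells. At an unadjusted p under 0.05 the counts of members were 3, 2 and 0 of 6. The share of all rows under that looser limit is at least the 46.6%, 44.1% and 34.2% called after adjustment. Without gastric replicate 3, Haao was called too, between gastric and duodenal cells (adjusted p = 0.0405) and between gastric and colonic cells (adjusted p = 0.0453). In all, 5 of the 7 members had no mean above background in any segment, against 60.7% of all rows with such a mean in at least 1 segment. A low value can also be due to a poor probe and is no proof of a missing transcript.

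**Figure D2:**
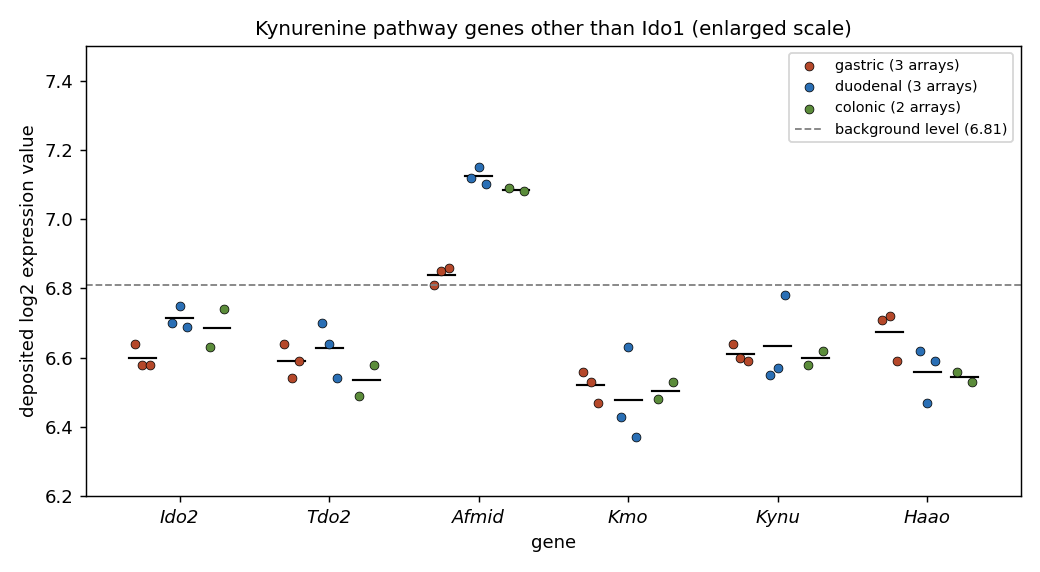
The 6 members other than Ido1 on an enlarged log2 scale, with a point per array, a bar at the group mean and the dashed background level of 6.81. Afmid alone has means above the line, with its gastric arrays (6.81 to 6.86) under the duodenal (7.10 to 7.15) and colonic ones (7.08 to 7.09).

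The rows whose profile over the 8 arrays was most like that of Ido1 were Sis, Ms4a10, Cyp4f14, Treh, Apoa4, Apoc3, Pdzk1 and Rbp2. Likeness was the root mean square distance between log2 values centred on the mean of the 3 group means, which was 0.81 for Sis, 0.94 for Ms4a10 and up to 1.41 for Rbp2. Sis (row 2010204N08RIK), the sucrase-isomaltase gene of the brush border, read 7.40, 7.33 and 7.27 in gastric, 12.70, 12.71 and 12.68 in duodenal, and 10.21 and 10.25 in colonic arrays. Ms4a10, a membrane-spanning protein gene, read 7.25, 7.23 and 7.30 in gastric, 12.15, 12.14 and 12.12 in duodenal, and 9.23 and 9.18 in colonic arrays. Both shared with Ido1 the order of the segments, duodenal above colonic above gastric.

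Cyp4f14, a cytochrome P450 gene, kept that order too, with means of 6.86 in gastric, 11.58 in duodenal and 9.93 in colonic arrays. The remaining 5 had colonic means much nearer to their gastric than to their duodenal means. Treh (trehalase) averaged 7.23 in gastric, 12.00 in duodenal and 7.40 in colonic arrays, and the apolipoprotein gene Apoa4 7.05, 12.70 and 6.66 in the same order of segments. The apolipoprotein gene Apoc3 averaged 6.91, 11.84 and 6.68, the scaffold gene Pdzk1 6.73, 10.68 and 7.12, and the retinol-binding protein gene Rbp2 7.41, 11.96 and 7.02. By Pearson's r over the 8 arrays, which ignores the size of the difference, 164 rows exceeded 0.99, Ms4a10 came highest (r = 0.9997), and 1 of the 8 rows (Ms4a10) was in both sets of 8.

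**Figure D3:**
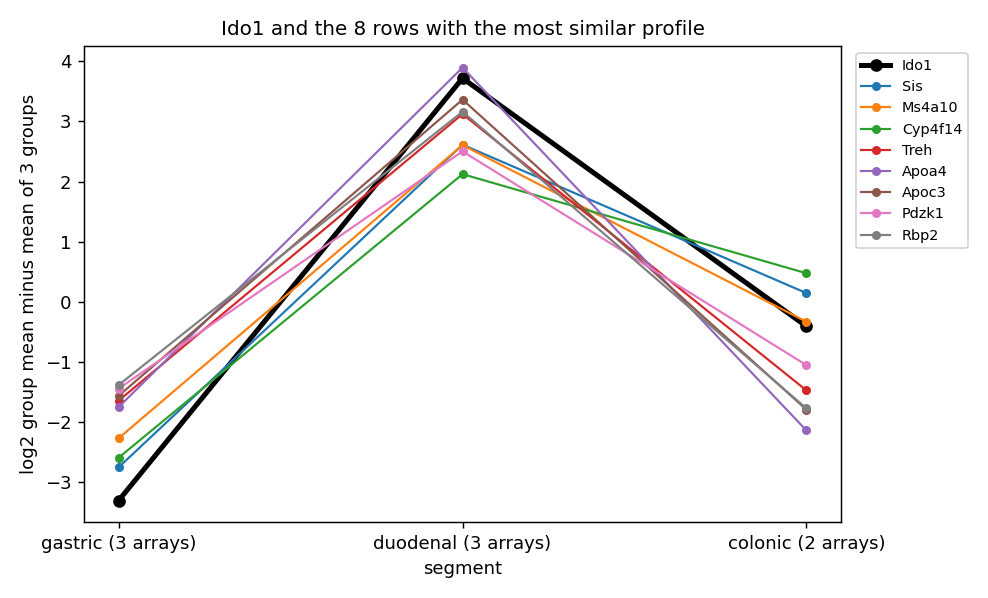
Group means of Ido1 (thick black line) and of the 8 most similar rows, on the log2 scale, each minus its own mean of the 3 segments. All 9 lines peak in the duodenum, and Ido1 has the lowest centred gastric value of them.

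Of the genes near Ido1 on the chromosome, Ido2, Adam3, Adam5 and Zmat4 were under the background level in each segment. Adam3 averaged 6.5 in gastric, 6.6 in duodenal and 6.4 in colonic arrays, and Adam5 6.5, 6.6 and 6.6. Adam18, which lies between Ido1 and Adam3, had no row. Tcim (row 1810011O10RIK), the next gene beyond Ido2, averaged 7.55 ± 0.09 (SD, n = 3) in gastric, 9.31 ± 0.06 (SD, n = 3) in duodenal and 10.16 ± 0.01 (SD, n = 2) in colonic arrays. It was thus highest in the colon, where Ido1 was intermediate. Zmat4, the gene after that, averaged 6.56, 6.78 and 6.61 in gastric, duodenal and colonic arrays.

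Genes that take kynurenine into its side branches and that make NAD were examined next, with 12 of 14 listed genes on the array. Between gastric and duodenal cells 2 were higher, 4 lower and 6 not called, a share near the 46.6% called over all rows, with a median log2 difference of -0.06 against -0.01 over all rows. Kyat1 and Kyat3 encode aminotransferases that turn kynurenine into kynurenate. Kyat1 read 9.09 to 9.15 in gastric, 9.12 to 9.15 in duodenal and 8.87 to 8.89 in colonic arrays. It was 1.19-fold higher in duodenal than in colonic cells (limma adjusted p = 0.000838) and 1.18-fold higher in gastric than in colonic cells (adjusted p = 0.00114). Kyat3 was 1.18-fold higher in gastric than in duodenal cells (adjusted p = 0.000467). Got2, a mitochondrial aspartate aminotransferase gene that also takes kynurenine, was 1.43-fold higher in gastric than in duodenal cells (adjusted p = 1.43e-07).

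Qprt, whose enzyme turns quinolinate into a precursor of NAD and so completes the route from tryptophan, was under background in all 3 segments, with means of 6.66 in gastric, 6.72 in duodenal and 6.62 in colonic arrays. Another 4 genes of NAD synthesis (Nampt, Naprt, Nadsyn1 and Nmnat3) were higher in duodenal than in both gastric and colonic cells. Over all rows, 23.9% were called lower in gastric than in duodenal cells and 16% higher in duodenal than in colonic cells. Nampt, the salvage enzyme gene for nicotinamide, read 7.94, 7.93 and 7.86 in gastric, 9.13, 9.0 and 9.08 in duodenal, and 8.35 and 8.39 in colonic arrays. No arrays of different segments overlapped. The same held for 52.7% of all rows between gastric and duodenal, 59.3% between gastric and colonic and 51.9% between duodenal and colonic arrays. Gastric cells were 2.24-fold lower than duodenal cells (log2 difference -1.16, SE 0.05, limma adjusted p = 3e-11) and duodenal cells 1.62-fold higher than colonic cells (log2 difference 0.70, SE 0.06, adjusted p = 1.1e-07).

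Naprt, which uses nicotinic acid, was 1.78-fold lower in gastric than in duodenal cells (means 9.57 and 10.40, limma adjusted p = 7.52e-10) and 1.39-fold higher in duodenal than in colonic cells (colonic mean 9.92, adjusted p = 3.33e-06). Nadsyn1, the NAD synthetase gene, was 1.86-fold lower in gastric than in duodenal cells (means 7.40 and 8.30, adjusted p = 3.1e-09) and 1.13-fold higher in duodenal than in colonic cells (adjusted p = 0.0378). Nmnat3, a nicotinamide mononucleotide adenylyltransferase gene, was 1.52-fold lower in gastric than in duodenal cells (means 7.05 and 7.65, adjusted p = 3.86e-08). Nmnat1 and Nmnat2, of the same family, and Nnmt, which methylates nicotinamide, were under background in each segment. Aadat, a further kynurenine aminotransferase gene, was under background as well, although its gastric and colonic means (6.54 and 6.78) differed by the test (adjusted p = 0.0125). Against colonic cells, gastric cells had 2 of the 12 genes higher and 4 lower (44.1% of all rows called), and duodenal cells had 5 higher and 1 lower (34.2% of all rows called).

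Genes for other uses of tryptophan were split between directions. In the list of 11 measured genes, 3 were higher and 3 lower in gastric than in duodenal cells (46.6% of all rows called), 3 higher and 3 lower in gastric than in colonic cells (44.1% of all rows), and 4 higher and 2 lower in duodenal than in colonic cells (34.2% of all rows). Maoa, a monoamine oxidase gene, was among the genes called lower in gastric cells in both comparisons but was under background in each segment. Tph1, the enzyme gene that commits tryptophan to serotonin, read 10.79, 10.84 and 10.76 in gastric, 10.18, 10.23 and 10.16 in duodenal, and 7.43 and 7.69 in colonic arrays. It was thus highest in the stomach, where Ido1 was lowest, and lowest in the colon, where Ido1 was intermediate. Tph1 was 1.52-fold higher in gastric than in duodenal cells (limma adjusted p = 7.39e-07), and Ddc, the decarboxylase gene of the next step, 1.97-fold higher (means 12.10 and 11.12, adjusted p = 1.05e-08).

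Wars, which charges tryptophan onto its tRNA and is itself inducible by interferon gamma, read 9.35, 9.33 and 9.44 in gastric, 10.21, 10.20 and 10.27 in duodenal, and 9.58 and 9.44 in colonic arrays. The duodenal arrays were the highest. It was 1.81-fold lower in gastric than in duodenal cells (limma adjusted p = 2.07e-09) and 1.64-fold higher in duodenal than in colonic cells (adjusted p = 1.43e-07), and gastric and colonic cells did not differ by the test (adjusted p = 0.0697). Maob, the related oxidase gene, was lower in gastric than in duodenal cells (log2 difference -0.33, adjusted p = 5.12e-05) and 2.31-fold higher in duodenal than in colonic cells (adjusted p = 1.88e-10). Il4i1, an amino acid oxidase gene that also acts on tryptophan, was under background in gastric and duodenal arrays (mean 6.77 in both) and averaged 6.95 in colonic arrays.

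Transport genes for tryptophan and kynurenine were mostly highest in duodenal cells. With 8 genes measured, gastric cells had 1 higher and 6 lower than duodenal cells (median log2 difference -0.63). Duodenal cells had 7 higher and 1 lower than colonic cells (median 1.5), and gastric cells had 5 higher and 3 lower than colonic cells (median 0.43). Over all rows, 22.7% were called higher and 23.9% lower in gastric than in duodenal cells, 16% higher and 18.2% lower in duodenal than in colonic cells, and 20.2% higher and 23.9% lower in gastric than in colonic cells. Slc6a19, the apical carrier of neutral amino acids including tryptophan, read 7.53, 7.5 and 7.51 in gastric, 10.06, 10.05 and 9.99 in duodenal, and 7.03 and 6.92 in colonic arrays. Its duodenal arrays stood far above the rest.

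Slc6a19 was 5.74-fold lower in gastric than in duodenal cells (limma adjusted p = 2.26e-15) and 8.34-fold higher in duodenal than in colonic cells (adjusted p = 2.2e-15). Slc7a9, the light chain of an apical exchanger for cystine and basic amino acids, averaged 7.22 in gastric, 10.78 in duodenal and 9.10 in colonic arrays. That is the segment order of Ido1, with gastric cells 11.8-fold lower than duodenal cells (adjusted p = 3.14e-17) and duodenal cells 3.19-fold higher than colonic cells (adjusted p = 1.17e-12). Cltrn (row TMEM27), whose protein is needed for amino acid uptake in kidney, was 1.41-fold higher in gastric than in duodenal cells (adjusted p = 2.85e-06). Slc7a8, a basolateral carrier of neutral amino acids, was 1.84-fold higher in gastric than in colonic cells (means 8.11 and 7.23, adjusted p = 1.24e-09).

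**Figure D4:**
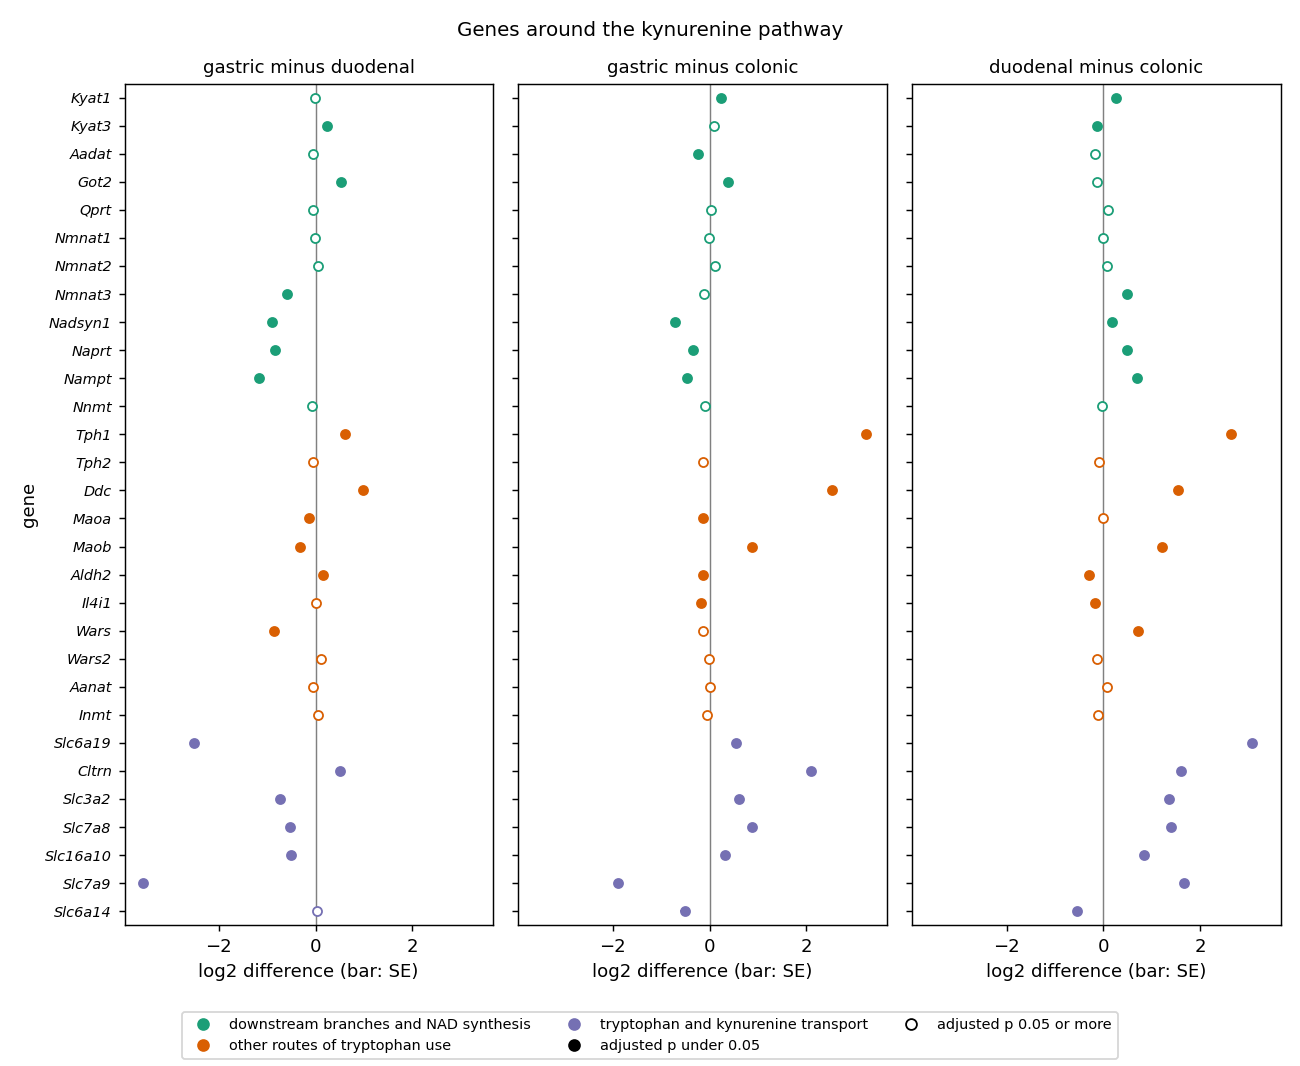
Log2 differences (points, with SE bars mostly hidden by them) of 30 genes for NAD synthesis and kynurenine side branches, other tryptophan use and transport, in the 3 comparisons. Filled points passed an adjusted p under 0.05. Nampt (-1.16), Wars (-0.85) and Slc6a19 (-2.52) lie left of 0 in gastric minus duodenal and right of 0 in duodenal minus colonic, while Tph1 and Ddc lie right of 0 in all 3.

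Receptor genes for kynurenine metabolites were mostly at background, with the duodenal and colonic means of Gpr35 and Grin2c above it. The colonic arrays of Grin2c read 6.79 and 7.01, the lower of them under background. Gpr35, an orphan receptor for which kynurenate is a proposed ligand, was called in each comparison, and the other 6 of 7 in none. Over all rows, 46.6% were called between gastric and duodenal, 44.1% between gastric and colonic, and 34.2% between duodenal and colonic cells. Gpr35 read 6.79, 6.80 and 6.79 in gastric, 7.02, 7.13 and 7.07 in duodenal, and 7.34 and 7.33 in colonic arrays, so it was highest in the colon. It was at least 1.2-fold lower in gastric than in duodenal cells (limma adjusted p = 0.000115) and 1.2-fold lower in duodenal than in colonic cells (adjusted p = 0.000831).

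Ahr, the aryl hydrocarbon receptor gene, averaged 6.54, 6.52 and 6.48 in gastric, duodenal and colonic arrays, under background in each. Its classical target genes Cyp1a1, Cyp1a2 and Cyp1b1 were under background too. Of the 11 measured genes of this list, 3 were higher and 2 lower in gastric than in duodenal cells, 5 higher and 2 lower in gastric than in colonic cells, and 1 (Nqo1, 1.21-fold, adjusted p = 0.000476) higher and 0 lower in duodenal than in colonic cells. Over all rows, 46.6%, 44.1% and 34.2% were called in these comparisons. Of the 5 genes higher in gastric than in colonic cells, 2 (Cyp1a1 and Tiparp) were under background in both. Aldh3a1, an aldehyde dehydrogenase gene and receptor target, read 9.12 to 9.18 in gastric arrays and lay under background elsewhere. It was at least 5.03-fold higher in gastric than in duodenal cells (limma adjusted p = 1.23e-15). Ugt1a6a, a glucuronidation gene, was 1.87-fold lower in gastric than in duodenal cells (adjusted p = 1.38e-08).

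Interferon gamma is a known inducer of Ido1, and most genes of its signalling list were lower in gastric cells than in both intestinal groups. In this list of 22 genes, gastric cells had 2 higher and 15 lower than duodenal cells (median log2 difference -0.73). Against colonic cells, gastric cells had 1 higher and 16 lower (median -0.98). Between duodenal and colonic cells, 2 genes of the list were higher and 11 lower in duodenal cells (median -0.15). Over all rows, the shares called higher and lower were 22.7% and 23.9%, 20.2% and 23.9%, and 16% and 18.2% in the same order of comparisons. Ifng itself read 6.49 to 6.66 over the 8 arrays, under background. The part of interferon gamma in the Ido1 values was not tested.

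Irf8, an interferon regulatory factor gene, read 7.82, 7.93 and 7.92 in gastric, 9.85, 9.94 and 9.80 in duodenal, and 10.78 and 10.70 in colonic arrays. It was highest in the colon, and duodenal cells were 1.83-fold lower than colonic cells (limma adjusted p = 1.65e-08). Gbp2, an interferon-induced GTPase gene, read 6.77, 6.73 and 6.82 in gastric, 8.0, 8.06 and 8.04 in duodenal, and 8.95 and 8.91 in colonic arrays. It was 1.87-fold lower in duodenal than in colonic cells (adjusted p = 2.29e-09).

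Irf1, a factor known to act on the Ido1 promoter, read 9.45, 9.45 and 9.58 in gastric, 10.64, 10.64 and 10.55 in duodenal, and 10.61 and 10.60 in colonic arrays. Its duodenal and colonic arrays overlapped (adjusted p = 0.971), and gastric cells were 2.16-fold lower than duodenal cells (limma adjusted p = 7.07e-11). Psmb9, an immunoproteasome gene, was 4.97-fold lower in gastric than in duodenal cells (adjusted p = 3.48e-13) and did not pass the test between duodenal and colonic cells (means 11.60 and 11.58, adjusted p = 0.869). Jak2 and Psmb8 were higher in duodenal than in colonic cells, both 1.28-fold (adjusted p = 0.000317 for Jak2 and 0.000179 for Psmb8). Igtp, an immunity-related GTPase gene, was 5.03-fold lower in gastric than in colonic cells (adjusted p = 1.56e-12). Socs3, a feedback inhibitor gene, was 2.26-fold lower in duodenal than in colonic cells (adjusted p = 6.5e-11).

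**Figure D5:**
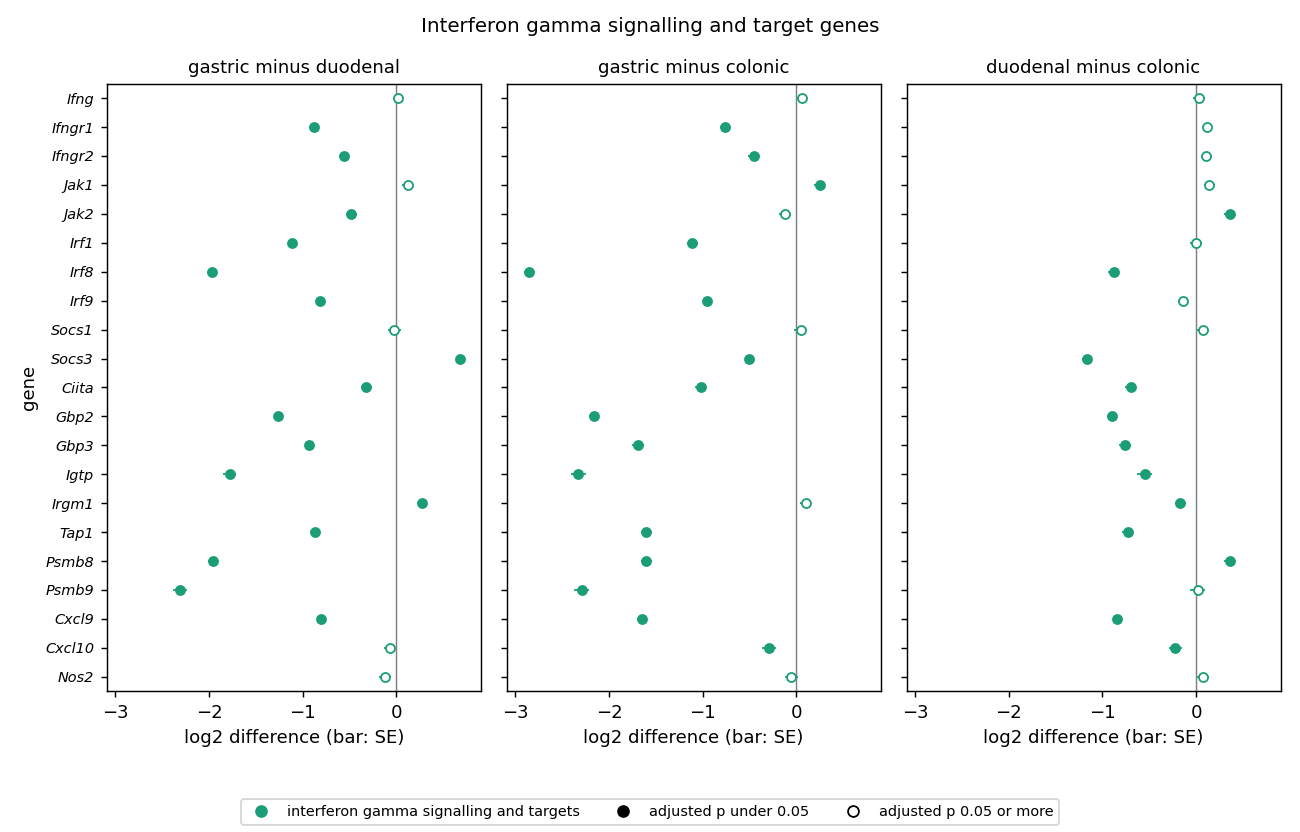
Log2 differences (points, with SE bars mostly hidden by them) of 21 interferon gamma signalling and target genes in the 3 comparisons, with filled points at an adjusted p under 0.05. Most lie left of 0 in gastric minus duodenal and gastric minus colonic, and 10 lie significantly left of 0 in duodenal minus colonic.

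The response to amino acid shortage, which tryptophan loss can start through the kinase of Eif2ak4, went both ways. Among 8 such genes, gastric cells had 2 higher and 4 lower than duodenal cells, and 3 higher and 3 lower than colonic cells, while duodenal cells had 3 higher and 0 lower than colonic cells. The calls over all rows were 46.6%, 44.1% and 34.2%, and 1 of the genes called between gastric and colonic cells (Sesn2) was under background in both. Chac1, a glutathione-degrading enzyme gene induced in this response, read 7.43, 7.22 and 7.15 in gastric, 8.57, 8.63 and 8.71 in duodenal, and 7.51 and 7.55 in colonic arrays. It was 2.58-fold lower in gastric than in duodenal cells (limma adjusted p = 1.14e-10) and 2.15-fold higher in duodenal than in colonic cells (adjusted p = 1.29e-08). Trib3 had the same duodenal maximum (means 6.90, 7.66 and 6.78 in gastric, duodenal and colonic arrays). Asns, the asparagine synthetase gene, was instead 2.03-fold higher in gastric than in duodenal cells (means 11.61 and 10.59, adjusted p = 6.7e-11). The transcription factor genes Atf4 (1.2-fold higher, adjusted p = 0.00211) and Ddit3 (1.36-fold lower, adjusted p = 1.21e-05) differed in opposite directions between gastric and colonic cells. Eif2ak4 was under background in each segment.

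Markers of the sorted and of other cells moved with these groups. Their counts of calls stand against 22.7% higher and 23.9% lower over all rows between gastric and duodenal cells, and 16% higher and 18.2% lower between duodenal and colonic cells. The summed unlogged values of 8 enteroendocrine markers ran from 41508 to 43829 in gastric, 7968 to 8541 in duodenal and 2427 to 2486 in colonic arrays, with Pax6 under background in each segment and Pcsk1 in the colon. All 8 were higher in gastric than in duodenal cells and 7 higher in duodenal than in colonic cells. For 7 enterocyte markers the sums were 6205 to 6367 in gastric, 37727 to 38554 in duodenal and 5450 to 5467 in colonic arrays. Of these 5 were lower in gastric than in duodenal cells and 5 higher in duodenal than in colonic cells, with Fabp1 and Fabp2 under background in each segment and Apoa4 in the colon. For 6 Paneth cell markers the sums were 12305 to 12821, 60545 to 63147 and 45732 to 48588 in gastric, duodenal and colonic arrays. Of these 5 were lower in gastric than in duodenal cells, and 4 were higher and 2 lower in duodenal than in colonic cells. For 5 goblet cell markers they were 54854 to 57635, 75991 to 76862 and 64304 to 66216, with 4 lower in gastric than in duodenal cells, 1 higher and 2 lower in duodenal than in colonic cells, and Clca1 under background. The Paneth and goblet sums both had the segment order of Ido1, but in each list the 2 genes called lower in duodenal than in colonic cells did not. Another 2 of the 5 goblet cell markers were not called between duodenal and colonic cells (median log2 difference of the list 0.1). The goblet sums also lay much closer together across segments than the unlogged Ido1 values. All 6 Paneth cell markers were above background in each segment, the stomach and colon included. For 6 tuft cell markers they were 2712 to 2861, 2840 to 2946 and 713 to 722, with 4 lower in gastric than in duodenal cells and Pou2f3 under background. The part of these cells in the Ido1 values was not tested.

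Among immune and stromal cells, 8 T cell markers summed to 784 to 808 in gastric, 1554 to 1605 in duodenal and 789 to 817 in colonic arrays. Of these, 5 were lower in gastric than in duodenal cells, where 23.9% of all rows were called lower. In duodenal against colonic cells 5 were higher, where 16% of all rows were called higher. In each of these comparisons, 1 of the called markers was under background in both groups. All 8 were under background in gastric arrays, and Cd8a, Cd8b1, Gzmb and Ptprc in duodenal arrays too. In colonic arrays all but Itgae were under background. The 11 markers of dendritic cells and macrophages summed to 1407 to 1422, 1615 to 1693 and 2687 to 2835 in gastric, duodenal and colonic arrays. Of these 11, 2 were higher and 2 lower in duodenal than in colonic cells, where 16% of all rows were called higher and 18.2% lower. Itgax, Csf1r, Adgre1, Itgam, Xcr1, Clec9a and Batf3 were under background in each segment. Cd68 was under it in gastric and duodenal arrays, Lyz2 in duodenal and colonic arrays, and Fcer1g in colonic arrays. Cd14 was highest in the colon (means 8.34 in gastric, 8.71 in duodenal and 10.78 in colonic arrays). The 5 B and plasma cell markers summed to 491 to 515, 555 to 556 and 499 to 536, and 4 mast cell markers to 396 to 414, 424 to 444 and 399 to 424, in the same order of segments. The 5 endothelial markers (552 to 570, 556 to 570 and 521 to 555) and 6 fibroblast and smooth muscle markers (605 to 607, 608 to 618 and 607 to 613) had similar sums in each segment. Many of these markers were under background, among them all 5 B and plasma cell markers in gastric arrays. All 6 fibroblast and smooth muscle markers were under it in gastric and colonic arrays. Such sums therefore say little about the content of these cells. The 5 hepatocyte markers summed to 17657 to 17980 in gastric, 3977 to 4308 in duodenal and 2026 to 2029 in colonic arrays. The defining gene Alb was under background in each segment, and Apoh and Cyp2e1 in gastric arrays too. Despite the high gastric sum, only 1 of the 5 was called higher in gastric than in duodenal cells and 3 lower. Over all rows, 22.7% were called higher and 23.9% lower.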

How the data were processed

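The deposited values are log2 expression values of Illumina bead arrays, in a table of 8 arrays whose rows are gene symbols. How probes were joined and which log base was used are not given in the sources used here, but their range fits log2 values. The submitters' processing notes name GenomeStudio, lumi and limma as the authors' tools. The sorted columns agreed to within 0.0043, as after quantile normalization. Background and detection columns were not used here.

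Rows were named through the GRCm38.p6 RefSeq annotation, used only for names and for the order of genes. Of 18131 rows, 14305 matched a current symbol and 2706 an older one. With limma 3.58.1 in R 4.3.3, the 8 arrays were modelled together by segment with empirical Bayes moderation. The call was a Benjamini-Hochberg adjusted p, taken over the whole table, under 0.05. A fold is written "at least" where the lower mean was under the background level, and the values of that group were then raised to that level. No fold is given where both means were under it.

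The members, the 7 pathway lists and the 12 marker lists were chosen with earlier results of these data known. Named genes were all members, the 8 rows most like Ido1, all downstream and NAD genes, and up to 3 called genes per list and comparison with the largest difference. Other named list genes and the chromosomal neighbours were chosen after their values were seen. Genes of a list that have no row were left out, and some genes counted in the lists are not reported here by name. The test was tried on simulated data. Summaries and figures were made in Python 3.11.15 (pandas 2.3.3, matplotlib 3.10.9).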

Additional observations from a re-analysis of the deposited data

How the results depend on the processing

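Ido1 kept its differences under 15 alternatives (a second quantile normalization, centring on medians, no dim rows, a robust trended variance, each pair of groups alone, array weights, a replicate block and each array left out), at -7.08 to -7.01 for gastric minus duodenal, -2.95 to -2.86 for gastric minus colonic and 4.09 to 4.17 for duodenal minus colonic. Several of these could not move a difference of group means. Leaving out dim rows, the trended variance, each pair alone and leaving out an array of the third group keep it by design. The second quantile normalization and the centring could hardly change it, as the sorted columns already agreed. These values of Ido1 are therefore a description and no test. Afmid kept its calls, with an adjusted p of 1.84e-05 to 0.000534 for gastric against duodenal and 0.000255 to 0.00868 for gastric against colonic cells (limma). With a limit of at least 2-fold, 0 members other than Ido1 were called in each comparison, and 1408, 1344 and 645 of all genes in the 3 comparisons. With array weights 2 members were called between gastric and duodenal cells, Ido2 (adjusted p = 0.0482) and Afmid. With each array left out, the count of members was 1 to 2 for gastric against duodenal, 1 to 2 for gastric against colonic and 0 to 0 for duodenal against colonic cells, the higher counts without gastric replicate 3, where Haao was added.

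The sign changed in 14 cases, all of members under background and with an adjusted p of 0.456 or higher, and the cause was not tested. With the replicate block, Kynu stood at -0.02 for gastric minus colonic and Kmo at 0.002 for duodenal minus colonic. The other sign changes came from leaving out an array, over which gastric minus duodenal ran from -0.064 to 0.051 for Kynu and from -0.006 to 0.125 for Kmo, gastric minus colonic from -0.012 to 0.036 for Kynu and from -0.015 to 0.035 for Kmo, and duodenal minus colonic from -0.029 to 0.085 for Ido2, from -0.039 to 0.076 for Kynu, from -0.114 to 0.016 for Kmo and from -0.017 to 0.056 for Haao. Arrays that share a replicate number did not deviate together (r of -0.014 to 0.013 over 7 pairs), so the numbers were not taken as pairs. The block left the counts of members at 1, 1 and 0 and those of all genes at 8418, 7830 and 5941. By Pearson's r, 1 of the 8 rows most like Ido1 was kept. No other background correction could be tried.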
